A study of Arabidopsis thaliana with 12 samples.

Results

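Transposons with more small interfering RNA (siRNA) in leaves than in floral buds were examined in Arabidopsis thaliana, in a series that tested synthetic sRNA spike-ins as a scale for sRNA-Seq. Members were chosen by their measured levels. A transposon was a member if both Col-0 leaf libraries exceeded both Col-0 flower libraries in the siR_21 table, in RPM, which are reads scaled to the genome-matching reads of a library, and the leaf mean was at least 2 RPM. Of 35092 transposons listed, 540 were members (1.54%), and these made up 4.75% of the 11365 transposons with a leaf mean of at least 2 RPM. The opposite pattern, with both flower libraries above both leaf libraries and a flower mean of at least 2 RPM, held for 13443 transposons (38.3%).

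The groups were Col-0 leaves (rosette and cauline leaves of the wild-type accession), Col-0 flowers (unopened floral buds) and dcl234 flowers, which are buds of plants homozygous for the dcl2-1, dcl3-1 and dcl4-2t mutations in the Col-0 background. The Col-0 plants were 4 to 6 weeks old and grown under 16-h days. The dcl234 plants were grown under identical conditions, and their age was not stated separately. Each group had 2 biological replicates, each a pool of tissue from separate plants, for sRNA-Seq and for mRNA-Seq. Leaves and Col-0 buds came from the same plants, and a difference between these whole tissues cannot tell fewer siRNA-producing cells from less siRNA per cell. A library held between 4062090 and 13755078 genome-matching sRNA reads, and 1 read was worth between 0.0727 and 0.246 RPM, the most in leaf replicate 2. The summed level of the flower markers AP3, PI, AG and SEP3, which specify floral organs, was 2.57 to 4.23 TPM in leaves and 204 to 311 TPM in Col-0 flowers, and the summed level of the leaf markers RBCS1A and LHCB1.3, of photosynthesis, was 22640 to 33750 TPM in leaves and 8544 to 10220 TPM in flowers.

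In plants, siRNAs from transposons guide their silencing. RNA polymerase IV and RDR2 make double-stranded RNA that DCL3 cuts into the longer siRNAs, which direct DNA methylation through AGO4-type Argonautes and polymerase V. DCL2 and DCL4 cut other double-stranded RNA, including the transcripts of inverted repeats that fold back on themselves, into the shorter siRNAs. The siR_21 and siR_24 tables are called by their names here, since which read lengths each holds was not settled from the sources. Loss of DCL3 is known to remove the longer siRNAs, and it was the siR_21 table that fell nearly throughout in the dcl234 flowers, so the names may be turned, and ratios between the tables are not read as longer to shorter siRNAs. The study's methods describe division of reads by their number of genomic matches. The values of both tables were whole multiples of 1 read instead, so they are taken here as undivided, with a read counted at each transposon it matched.

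AT3G43828 had the largest leaf to flower ratio of all members. It is a transposable element gene on chromosome 3, annotated by RefSeq on TAIR10.1 as a single pseudogene of 627 bases on the minus strand (chr3:15677383-15678009). Its sequence is shown because it holds an inverted repeat. The stretch from base 220 to base 314 of the gene and the reverse complement of the stretch from base 529 to base 623 matched at 89 of 95 positions without a gap, with 214 bases between them. Capitals mark the matching bases.
AT3G43828 first arm (chr3:15677696-15677790, minus strand): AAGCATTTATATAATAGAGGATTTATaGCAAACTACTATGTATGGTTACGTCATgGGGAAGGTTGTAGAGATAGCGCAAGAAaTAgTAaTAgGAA
AT3G43828 second arm, reverse complement (chr3:15677387-15677481, plus strand): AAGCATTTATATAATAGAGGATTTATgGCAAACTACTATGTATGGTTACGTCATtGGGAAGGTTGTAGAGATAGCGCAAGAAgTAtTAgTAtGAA

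These arms were part of a larger inverted arrangement. Within 3000 bases either side of AT3G43828, 16 stretches of 18 to 37 bases recurred exactly as their reverse complement. These pairs lay between positions 15676216 and 15678398 of chromosome 3, a span of 2183 bases, and covered 47.8% of the gene. The same scan of all 3903 transposable element genes found no such pair around 3072 of them (78.7%), and 54 (1.38%) had at least as many bases in pairs as the 846 at AT3G43828. The other 11 transposable element genes among the members had no pair. The scan was chosen after the values of AT3G43828 were seen.

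In the siR_21 table, AT3G43828 stood at 25.2 and 23.1 RPM in leaves. Col-0 flowers had 3.47 and 2.62 RPM, and dcl234 flowers had 0.394 and 0.582 RPM. The reads behind them were 221 and 94 for leaves, 46 and 36 for Col-0 flowers, and 4 and 5 for the mutant. The leaf mean was 7.93 times the flower mean. In the siR_24 table, the gene stood at 84.2 and 80.8 RPM in leaves, against 2.87 and 2.18 RPM in Col-0 flowers and 1.28 and 0.582 RPM in the mutant. The leaf to flower ratio there was 32.7, so the leaf libraries stood further apart from the flower libraries in the siR_24 than in the siR_21 table.

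A pair of transposable elements on chromosome 3 likewise had a larger leaf to flower ratio in the siR_24 than in the siR_21 table. AT3TE63405 had 23.4 and 21.2 RPM in leaves against 3.70 and 3.64 RPM in Col-0 flowers in the siR_21 table, a ratio of 6.08. In the siR_24 table it had 74.4 and 70.2 RPM in leaves against 2.49 and 1.82 RPM in flowers, a ratio of 33.6. AT3TE63395 had 47.4 and 46.8 RPM in leaves against 20.8 and 23.0 RPM in flowers in the siR_21 table, a smaller ratio of 2.15. In the siR_24 table it had 97.2 and 92.1 RPM in leaves against 12.7 and 13.1 RPM in flowers. In neither table did leaf and flower libraries of these elements overlap. AT3TE63400, the ID between them, was no member, with 21.9 and 17.0 RPM in leaves and 17.4 and 20.2 RPM in flowers in the siR_21 table. The IDs just outside, AT3TE63390 and AT3TE63410, were at 0 in every library of both tables. The positions of elements with TE numbers were not analysed here, so whether they overlap AT3G43828 was not tested.

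AT5TE11315 was another member with a large difference, at a far higher level. In the siR_21 table it stood at 1291 and 1121 RPM in leaves, with 240 and 299 RPM in Col-0 flowers and 648 and 878 RPM in the mutant. In the siR_24 table it stood at 915 and 818 RPM in leaves, with 125 and 161 RPM in Col-0 flowers and 308 and 379 RPM in the mutant. In RPM no groups overlapped in either table, and the order was leaves, dcl234 flowers, Col-0 flowers in both. After scaling by the sRNA spike-ins, given below, the mutant stood above the leaves in both tables. Its nearest IDs on either side, AT5TE11310 and AT5TE11320, were at 0 in every library. AT5TE11330, the third ID after it, had 238 and 204 RPM in leaves and 311 and 349 RPM in flowers in the siR_21 table, the reverse of its neighbour.

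**Figure D1:**
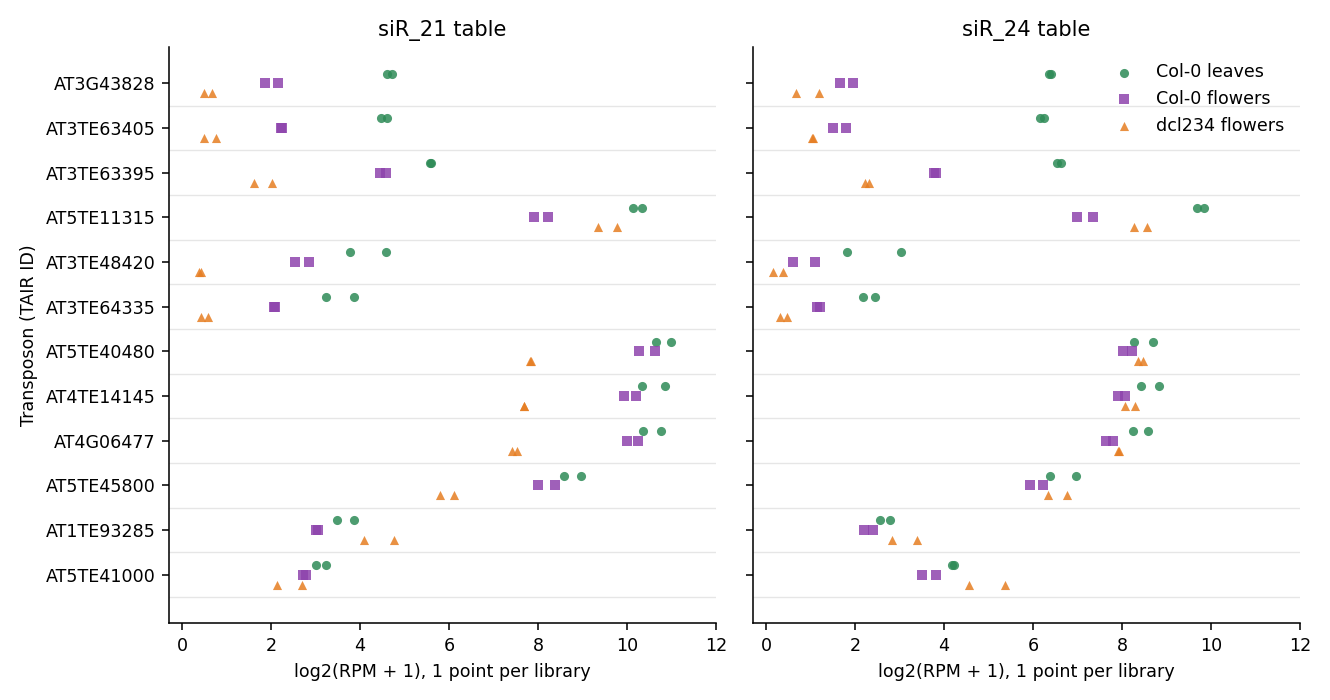
Levels of 12 members in the siR_21 table (left) and the siR_24 table (right) as log2(RPM + 1), with 1 point per library for Col-0 leaves (circles), Col-0 flowers (squares) and dcl234 flowers (triangles). AT3G43828, AT3TE63405 and AT3TE63395 stand further apart between leaves and flowers in the siR_24 than in the siR_21 table, and AT5TE11315 is higher in dcl234 than in Col-0 flowers in both.

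Most members differed far less than these. The rule itself sets the direction, so the ratios are given as a description. The leaf to flower ratio of mean RPM ran from 1.03 to 7.93, with a median of 1.39 and quartiles of 1.24 and 1.68. It was at least 2 in 63 members, at least 3 in 10 and at least 5 in 2, AT3G43828 and AT3TE63405. After AT3G43828, AT3TE63405 and AT5TE11315 the largest differences on the log2(RPM + 1) scale were those of AT3TE48420 and AT3TE64335. AT3TE48420 had 12.8 and 22.9 RPM in leaves against 4.83 and 6.25 RPM in flowers, and AT3TE64335 had 13.4 and 8.37 RPM against 3.25 and 3.20 RPM. The leaf libraries of both were further from each other than their flower libraries were.

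The leaf means of members ran from 2.01 to 1811 RPM with a median of 10.3 RPM, close to the median of 11.4 RPM over all transposons with a leaf mean of at least 2 RPM. A total of 141 members were under 5 RPM, 343 between 5 and 50 RPM, and 56 at 50 RPM or more. At the threshold, AT1TE76550 (leaf mean 2.01 RPM) and AT3TE64540 (2.02 RPM) were just inside, and AT3TE91225 and AT3TE91170 (both 1.92 RPM, with the same values in every library of the table) were just outside. In leaf replicate 2, the library with the fewest reads, a member rested on 6 to 8230 reads with a median of 41, and 129 members had fewer than 20.

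A few members held much of the summed RPM. The members summed to 16378 and 17835 RPM in leaves and to 11522 and 13031 RPM in Col-0 flowers in the siR_21 table, which was 3.66% and 4.35% of the table in leaves and 1.27% and 1.28% in flowers. The 6 with a leaf mean above 400 RPM gave 38.2% and 43.3% of the leaf sums. A read was taken as counted at each transposon it matched, so these sums and shares can hold the same read more than once. The highest was AT5TE40480, with 1597 and 2026 RPM in leaves and 1242 and 1584 RPM in flowers. AT4TE14145 had 1298 and 1843 RPM in leaves and 972 and 1178 RPM in flowers. AT4G06477, a transposable element gene of 4320 bases on the minus strand of chromosome 4 (chr4:3060975-3065294), had 1310 and 1747 RPM in leaves and 1017 and 1207 RPM in flowers. In these 3 the lowest leaf library and the highest flower library were close, and the ratios of the means were between 1.28 and 1.46. AT5TE45800 and AT5TE45470, both among the 6, shared 383 and 496 RPM in leaves and 253 and 333 RPM in flowers.

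**Figure D2:**
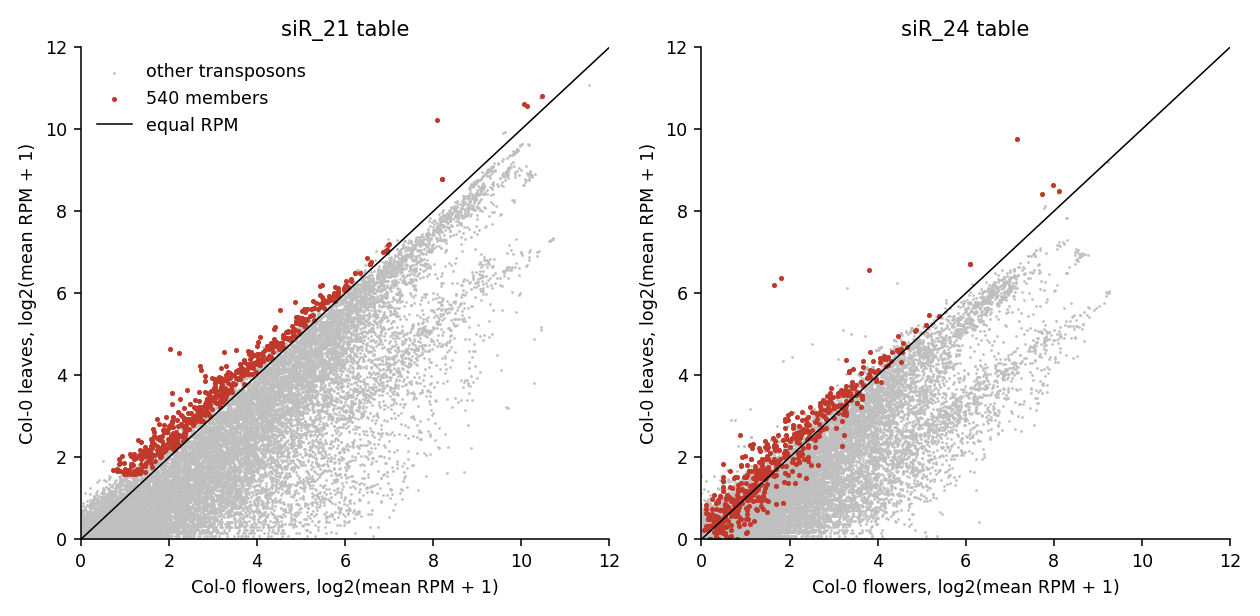
Mean RPM of Col-0 leaves (vertical) against Col-0 flowers (horizontal) as log2(RPM + 1) for 35092 transposons, in the siR_21 table used by the rule (left) and in the siR_24 table (right), with the 540 members in red and a line at equal RPM. Most members lie close above the line in the siR_21 table and on either side of it in the siR_24 table.

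The siR_24 table was not used by the rule, but its leaf and flower libraries were, so its values are likewise a description. Both leaf libraries exceeded both Col-0 flower libraries there in 188 members (34.8%), against 2.43% of all transposons. Both were below in 66 members (12.2%), against 42.1% of all transposons, and in 286 the groups overlapped. Of all 35092 transposons, only 16717 and 15416 were above 0 in leaf replicates 1 and 2 of this table, and those at 0 could not exceed the flower libraries. The median difference between leaves and flowers on the log2(RPM + 1) scale was 0.17 over the members and -0.73 over all transposons with a siR_21 leaf mean of at least 2 RPM. Levels were lower in this table, with a median leaf mean of 2.47 RPM. The highest after AT5TE11315 were AT4TE14145, with 343 and 457 RPM in leaves and 238 and 266 RPM in flowers, and AT5TE40480, with 307 and 413 RPM in leaves and 258 and 296 RPM in flowers.

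The siR_24 level of a member was usually a fraction of its siR_21 level. The median ratio of siR_24 to siR_21 RPM was 0.217 in leaves and 0.240 in Col-0 flowers over the members, and 0.256 and 0.265 over all transposons with a siR_21 leaf mean of at least 2 RPM. In leaves, 8 members had more in the siR_24 table, and 96 of all 11365 transposons with a siR_21 leaf mean of at least 2 RPM. The 8 members were AT3G43828 (ratio 3.42), AT3TE63405 (3.24), AT3TE63395 (2.01), AT5TE41000 (2.26) and 4 elements of chromosome 5 with IDs from AT5TE45305 to AT5TE45795. These 4 form pairs with the same values. In Col-0 flowers, 12 members and 45 of the 11365 transposons had more in the siR_24 table. In Col-0 flowers the ratio of AT3G43828 was 0.829 and that of AT3TE63405 0.588, so these members lay above 1 in leaves and below 1 in flowers.

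**Figure D3:**
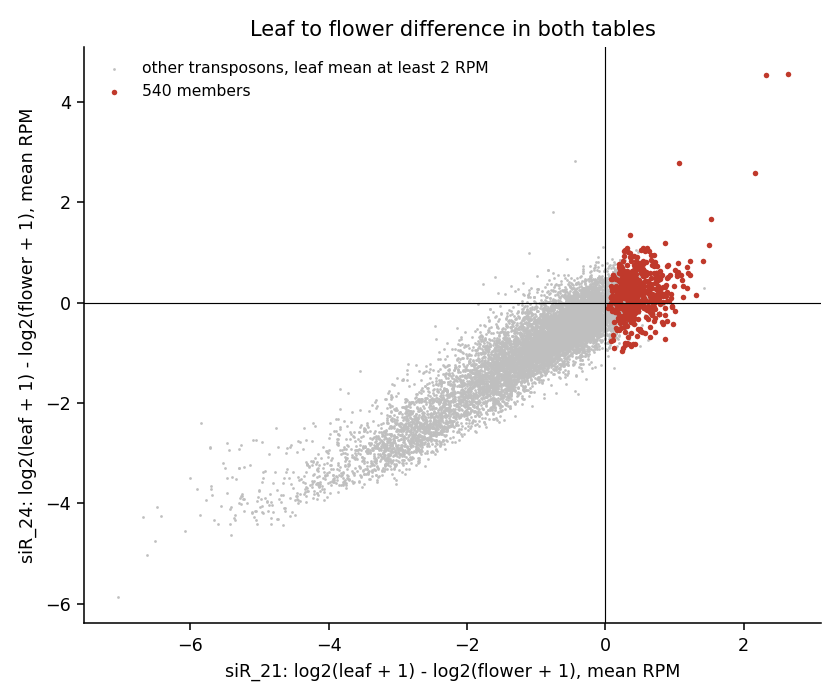
Difference between Col-0 leaves and Col-0 flowers on the log2(RPM + 1) scale of mean RPM in the siR_24 table (vertical) against the siR_21 table (horizontal), for the 540 members (red) and the other transposons with a siR_21 leaf mean of at least 2 RPM (grey). The 4 members above 2.5 on the vertical axis are AT3G43828, AT3TE63405, AT3TE63395 and AT5TE11315.

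RPM gives the share of a library, and the sRNA spike-ins give another scale. Per amount of total RNA, 1 RPM of a leaf library was worth 0.387 and 0.266 times as many molecules as 1 RPM of the Col-0 flower libraries on average, and 1 RPM of a dcl234 library 1.34 and 1.16 times as many. On this scale 489 of the 540 members had both flower libraries above both leaf libraries and 48 overlapped, and of all 11365 transposons with a siR_21 leaf mean of at least 2 RPM, 99.4% had both flower libraries above. The median leaf to flower ratio was 0.454. AT3G43828, AT3TE63405 and AT5TE11315 were the 3 members of which both leaf libraries stayed above both flower libraries (0.0264% of those 11365 transposons), with ratios of 2.61, 2.00 and 1.48. AT5TE11315 did so narrowly, with scaled values of 499.3 and 298.5 in leaves against 241.4 and 297.4 in Col-0 flowers. On the spike-in scale of the siR_24 table, the direction held in 6 members, against 0.0704% of the same 11365 transposons, with ratios of 10.7 for AT3G43828, 11.0 for AT3TE63405, 2.41 for AT3TE63395 and 2.00 for AT5TE11315, beside AT2TE77480 and AT4TE33020, which had 2.16 and 2.95 RPM and 0.569 and 0.985 RPM in leaves. The values of AT4TE33020 rest on few reads. In the siR_21 table the scaled ratio of AT3TE63395 was 0.7035, with both flower libraries above both leaf libraries. In dcl234 flowers the scaled values of AT5TE11315 in the siR_21 table were 871.4 and 1018, above both leaf libraries. In the siR_24 table they were 414.1 and 439.6, against 354.0 and 217.7 in leaves.

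**Figure D4:**
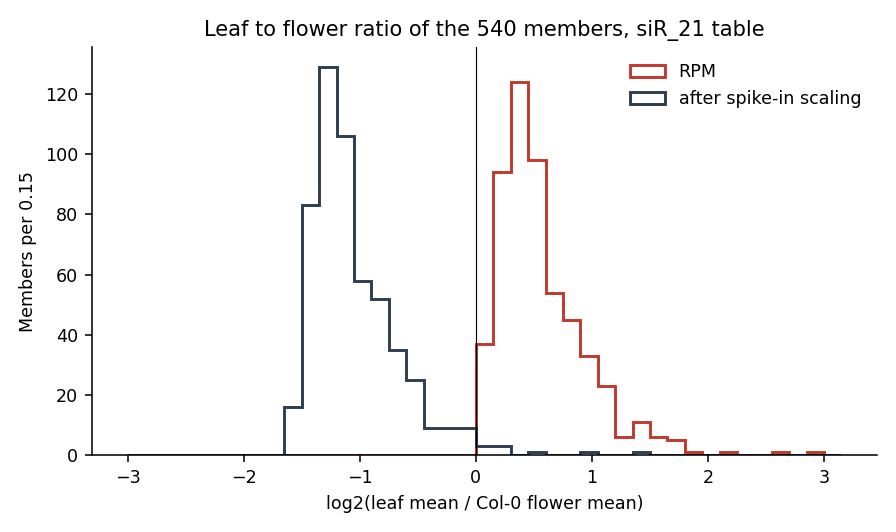
Number of members per bin of 0.15 of the log2 ratio of Col-0 leaf to Col-0 flower means in the siR_21 table, in RPM (red, where the rule sets every value above 0) and after scaling by the sRNA spike-ins (dark). The median ratio is 1.39 in RPM and 0.454 after scaling.

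The dcl234 flowers were compared with Col-0 flowers to ask which siRNAs of the members depend, in buds, on the mutated Dicer-like ribonucleases. There were no dcl234 leaf libraries, so this dependence was not measured in leaves. The Col-0 flower libraries also entered the rule, which favoured low flower values. In the siR_21 table, 537 members (99.4%) had both dcl234 libraries below both Col-0 flower libraries, against 65.0% of all transposons, many of which are at or near 0. With limma, 538 members passed the filter of a mean of at least 1 RPM, and 532 were called lower and 2 higher at an adjusted p under 0.05. Of all 15813 transposons tested, 99.6% were called lower and 0.158% higher, so the share of members called lower was that of the background. The median difference was -2.27 over the members tested and -2.82 over all transposons tested, on the log2(RPM + 1) scale. This gap depended on the added 1, since the medians were -3.51 and -3.54 with 0.1 added, and with edgeR on the genome-matching totals the members were the lower of the pair, at -3.75 against -3.61. Over all 540 members the dcl234 mean was 0.0714 times the Col-0 flower mean at the median, and 58 members were at 0 in both dcl234 libraries.

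The falls ranged widely. AT3TE24550 had 48.9 and 56.4 RPM in Col-0 flowers, and its mutant level was 0.0984 and 0.116 RPM, a difference of -5.60 ± 0.19 (SE, n = 2 per group, limma adjusted p = 1.96e-11), where the mutant level is 1 read in each library. AT5TE54595 had 116 and 134 RPM, and its mutant level was 3.15 and 3.26 RPM, a difference of -4.91 ± 0.15 (limma adjusted p = 1.84e-11). AT3G43828 differed by -1.44 ± 0.25 (limma adjusted p = 7.39e-05), on 4 and 5 mutant reads. With edgeR and TMM, and with DESeq2, its difference turned to 0.91 and 0.84 and was not called. The 4 members tested and not called were AT3TE58460, AT4TE26985, AT5TE41000 and AT5TE57325. Of these, AT5TE41000 had 5.89 and 5.60 RPM in Col-0 flowers against 3.35 and 5.47 RPM in the mutant.

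The 2 members called higher were AT5TE11315 and AT1TE93285. AT5TE11315 rose by 1.49 ± 0.15 on the log2(RPM + 1) scale (limma adjusted p = 3.07e-07), from the levels given above. AT1TE93285 had 13.5 and 10.1 RPM in leaves, and rose from 7.02 and 7.27 RPM to 15.9 and 26.0 RPM in the mutant, a difference of 1.39 ± 0.24 (limma adjusted p = 8.16e-05). For both, all libraries of the mutant stood above those of Col-0 flowers, and both were also called higher in the siR_24 table, where AT1TE93285 had 0.81 ± 0.26 (limma adjusted p = 0.0298) and lost the call without either Col-0 flower replicate or without replicate 2 of dcl234 flowers (0.53 to 0.92). Tests that set the library scale from the bulk of the transposons, edgeR with TMM and DESeq2, gave 75 and 67 members lower and 67 and 57 higher in the siR_21 table, against 11.4% and 10.0% lower and 7.74% and 5.06% higher of all transposons tested. These tools place the median of all transposons near 0 (-0.04 and -0.12). Both marker lists moved with the genotype, with summed levels in dcl234 flowers of 462 to 626 TPM for the flower markers and 15730 to 16970 TPM for the leaf markers, and their part in these differences was not tested.

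In the siR_24 table members were called in both directions, more of them lower. Both dcl234 libraries were below both Col-0 flower libraries in 378 members (70.0%), against 30.6% of all transposons, and above in 40 (7.41%), against 7.76%. Of all 35092 transposons, only 21930 and 21998 were above 0 in Col-0 flower replicates 1 and 2 of this table, and those at 0 could not fall. Of 349 members that passed the filter, limma called 166 lower (47.6%) and 9 higher (2.58%), against 28.6% and 3.35% of all 12440 transposons tested. edgeR with TMM gave 122 lower and 23 higher, and DESeq2 84 lower and 20 higher, against 14.2% and 9.08% lower and 11.2% and 6.29% higher of all transposons tested. The limma median was -0.72 over the members tested and -0.38 over all transposons tested. AT1TE72020, with 8.00 and 10.4 RPM in Col-0 flowers against 0.197 and 0.466 RPM in the mutant, differed by -2.94 ± 0.25 (limma adjusted p = 6.23e-06). AT1TE71915 had nearly the same values, at -2.93. The count of members called lower depended on single libraries, with 84 without replicate 2 of Col-0 flowers, 103 without replicate 1 of Col-0 flowers and 101 without replicate 2 of dcl234 flowers, and the count called higher was 2 without each of these. The filter mean includes the leaf libraries that chose the members. With at least 1 RPM required in each library, limma called 73 of 184 members lower and 9 higher. Of all 7453 transposons tested that way, 36.9% were lower and 2.91% higher. The medians were then close, at -0.47 over the members and -0.43 over all.

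AT5TE41000 had the largest rise of a member in the siR_24 table. Its levels were 10.3 and 13.1 RPM in Col-0 flowers and 22.4 and 40.5 RPM in the mutant, a difference of 1.303 ± 0.243 (limma adjusted p = 0.00126). In leaves it stood at 17.1 and 17.7 RPM, between the other groups on the RPM scale. After spike-in scaling its leaf libraries did not both exceed both Col-0 flower libraries. AT5TE11315 followed with 1.26 ± 0.16 (limma adjusted p = 8.14e-05). Of the 9 members called higher, 5 lay in a block of repeated values on chromosome 5, AT5TE45305, AT5TE45465, AT5TE45575, AT5TE45625 and AT5TE45795, where AT5TE45465 and AT5TE45795 shared 19.7 and 21.4 RPM in Col-0 flowers and 26.0 and 44.2 RPM in the mutant. The highest members of the siR_21 table, AT5TE40480, AT4TE14145 and AT4G06477, were called lower there by limma, turned to called higher with edgeR and TMM (0.93 to 1.20) and with DESeq2 (0.85 to 1.12), and were not called by limma in the siR_24 table, where AT5TE40480 had 258 and 296 RPM in Col-0 flowers against 328 and 354 RPM in the mutant.

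**Figure D5:**
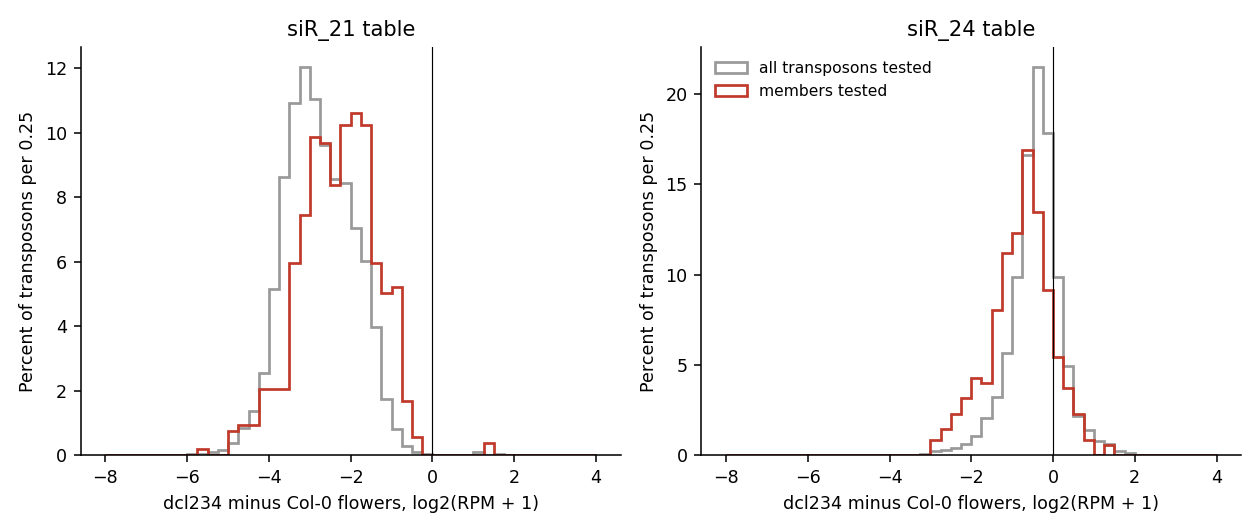
Percent of transposons per bin of 0.25 of the difference between dcl234 and Col-0 flowers on the log2(RPM + 1) scale, for all transposons tested (grey) and members tested (red), in the siR_21 table (left) and the siR_24 table (right). The medians are -2.82 for all and -2.27 for members on the left, and -0.38 and -0.72 on the right.

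Members were found on all 5 chromosomes in proportion close to the transposons listed there. They were 128 on chromosome 1, 99 on chromosome 2, 120 on chromosome 3, 75 on chromosome 4 and 118 on chromosome 5, which is between 1.32% (chromosome 4) and 1.64% (chromosome 1) of the transposons of each. By kind, 528 were transposable elements (1.69% of 31189) and 12 were transposable element genes (0.307% of 3903). Numbering each chromosome's elements by ID and cutting the order into bins of 500 gave 59 full bins with 0 to 20 members and a median of 8. The bin with 20 held IDs AT3TE68475 to AT3TE77615. Along the ID order the members were spread unevenly. Of transposons with a leaf mean of at least 2 RPM, members were 12.9% in that bin. They were 0 of 281 from AT1TE47205 to AT1TE50890 and 0 of 136 from AT3TE58595 to AT3TE61400. From AT5TE41815 to AT5TE45030 they were 1 of 185, and 8.46% in the next bin. Nearer the start of chromosome 1, AT1TE19790 to AT1TE30875 had 2.27%.

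Of the 1080 positions next to a member, 54 (5%) held another member, where members were 1.54% of all transposons. Of the 1011 transposons that were next to a member without being one, 627 (62.0%) were under 2 RPM in both the leaf and the flower mean, and 243 (24.04%) had both flower libraries above both leaf libraries with a flower mean of at least 2 RPM. The corresponding shares of all transposons were 54.7% and 38.3%. Allowing up to 2 listed non-members between neighbours, 92 members (17.0%) fell into 42 runs, of which 35 had 2 members and 6 had 3.

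The longest run was AT3TE48405, AT3TE48415, AT3TE48420 and AT3TE48430, with leaf to flower ratios from 1.63 to 3.22. AT3TE48405 had 10.2 and 17.7 RPM in leaves and 7.55 and 6.98 RPM in flowers. AT3TE48415 had 6.60 and 9.85 RPM in leaves and a flower mean of 5.04 RPM. AT3TE48410, between them, was under 2 RPM in every library, and AT3TE48425 was at 0. In the run AT1TE35060, AT1TE35100 and AT1TE35105, the ratios were 1.18 to 1.21, and AT1TE35100 and AT1TE35105 had the same values in some libraries of the siR_21 table and in every library of the siR_24 table. In the run AT1TE66980, AT1TE66985 and AT1TE67005, the ratios were 1.54 to 2.01. AT1TE66980 and AT1TE66985 were at 0 in both dcl234 libraries of the siR_21 table, whereas AT1TE67005 kept a mean of 1.44 RPM against 7.33 RPM in Col-0 flowers.

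A block of chromosome 5 held repeated values, among members and other transposons. In and next to it, 88 of 105 transposons above 0 had the same values in all libraries as another in the block. Among 103 transposons listed from AT5TE45305 to AT5TE45830, 15 were members. The 7 from AT5TE45305 to AT5TE45500 each had a partner among the 7 from AT5TE45625 to AT5TE45830 with the same values in all 12 library columns of both tables, in the same order of IDs, and AT5TE45575 lay between without a partner. AT5TE45575 had 104 and 127 RPM in leaves and 83.2 and 94.7 RPM in flowers in the siR_21 table. Over all members, 29 shared their 12 values with another member, in 13 sets, so the 540 members held 524 distinct sets of values.

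Some transposable element genes with equal values share sequence. AT1G47783 and AT1G51750 on chromosome 1 and AT3G14517 on chromosome 3, all annotated by RefSeq on TAIR10.1 as pseudogenes, had the same siR_21 values, 4.78 and 5.42 RPM in leaves, 2.79 and 2.98 RPM in Col-0 flowers, and 0.197 and 0.233 RPM in the mutant. The elements AT1TE58410, AT1TE63610 and AT3TE20540 repeated them. A stretch of 103 bases was the longest found in all 3 genes. It is shown in capitals with up to 12 flanking bases, each read on the strand of its gene, because a read from inside it would match all 3. Where in these genes the reads lie was not tested.
AT1G47783 (chr1:17596909-17597023, plus strand): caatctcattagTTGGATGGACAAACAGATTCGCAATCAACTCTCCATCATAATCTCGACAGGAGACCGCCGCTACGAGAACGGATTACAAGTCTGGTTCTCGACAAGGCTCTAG
AT1G51750 (chr1:19197035-19197149, plus strand): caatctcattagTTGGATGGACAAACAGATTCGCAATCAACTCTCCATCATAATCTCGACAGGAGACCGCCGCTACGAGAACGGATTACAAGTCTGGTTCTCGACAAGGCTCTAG
AT3G14517 (chr3:4869845-4869971, minus strand): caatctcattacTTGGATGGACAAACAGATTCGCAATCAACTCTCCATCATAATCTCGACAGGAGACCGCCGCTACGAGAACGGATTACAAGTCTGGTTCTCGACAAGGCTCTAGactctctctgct

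The 12 transposable element genes differed in how much of their sequence is unique. The share of 24-base words of a gene that occur once in the TAIR10.1 genome was 100% in AT1G54750, AT2G05985 and AT5G37175, 86.6% in AT3G43828 and 80.1% in AT4G06477. It was 14.1% in AT1G47783, 29.0% in AT1G51750 and 37.1% in AT3G14517, and 0.0742% in AT1G16620. The median was 77.9% over the 12 member genes and 64.9% over all 3903 transposable element genes. Over the 2246 transposable element genes with a leaf mean of at least 2 RPM it was 46.3%. AT2G05985, of which every such word is unique, had a leaf mean of 41.3 RPM and a flower mean of 30.6 RPM in the siR_21 table. In AT4G06477, 20.0% of the bases lay in words with 10 or more copies in the genome, up to 286. Whether its reads come from these bases was not tested.

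The mRNA of these genes was near or at 0. All 12 were listed in the mRNA table, 7 of them at 0 TPM in every library, and the highest value was 0.24 TPM, of AT1G47783 in dcl234 flowers. None reached the mean of 1 TPM needed for a test, and none was above 0 in a leaf library. AT3G43828 was at 0 TPM in all 6 libraries. AT4G06477 was at 0 TPM in both leaf libraries, 0.03 and 0 TPM in Col-0 flowers, and 0.09 and 0.06 TPM in the mutant. Of all 3903 transposable element genes, 2677 were at 0 in every library and 94 reached a mean of 1 TPM. These libraries were made from poly(A) RNA.

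Some of the genes that make and use siRNAs had lower mRNA in leaves. Of a list of 32 genes of the pathway, 28 were tested with limma on log2(TPM + 1), and 13 were lower and 0 higher in leaves than in buds of Col-0, against 24.9% lower and 12.0% higher of all 19778 genes. The median difference was -0.84 over the list and -0.31 over all genes tested. After quantile normalization, which moved the median over all genes to 0.07, 10 were lower and 2, SUVH2 and SUVH9, which help recruit polymerase V, were higher. CLSY3, which recruits polymerase IV in reproductive tissues, was listed at 0 TPM in both leaf libraries and stood at 3.86 and 6.72 TPM in Col-0 flowers (limma adjusted p = 3.94e-05). AGO9, an Argonaute of reproductive tissues, had 0.15 and 0 TPM in leaves and 28.7 and 40.4 TPM in flowers, a difference of -5.03 ± 0.32 (limma adjusted p = 6.66e-08). AGO4, the main Argonaute of the pathway, had 4.85 and 2.89 TPM in leaves and 13.6 and 22.1 TPM in flowers, a difference of -1.95 ± 0.35 (limma adjusted p = 0.000596).

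DCL3 had 0.83 and 0.34 TPM in leaves and 3.85 and 4.30 TPM in Col-0 flowers, a difference of -1.70 ± 0.35 (limma adjusted p = 0.00167). The other genes called with a difference of at least 1 were CMT3 and DDM1, which maintain DNA methylation, NRPE1 and NRPD2, subunits of polymerases V and IV, DMS3, which helps polymerase V, and HEN1, which methylates small RNAs, with differences between -1.61 and -1.16. DRD1, DCL4 and MET1 were called lower by less than 1. RDR6, which makes the double-stranded RNA that DCL4 cuts, was not called, with 3.19 and 2.36 TPM in leaves and 2.50 and 4.45 TPM in flowers. The count of 13 fell to 7 without replicate 2 of Col-0 flowers and to 8 without replicate 2 of Col-0 leaves or without either dcl234 replicate.

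Of the mutated genes, DCL3 had 0.40 and 0.37 TPM in the mutant and was the 1 gene of the list called in dcl234 against Col-0 flowers, at -1.87 ± 0.35 (limma adjusted p = 0.0140). Of all genes, 0.48% were called lower and 1.34% higher, and the median difference over all genes tested was 0.50. DCL2 had 1.04 and 1.60 TPM in the mutant against 2.07 and 3.26 TPM in Col-0 flowers, and DCL4 had 3.12 and 2.87 TPM against 3.20 and 4.51 TPM. The groups did not overlap for either, and neither was called.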

How the data were processed

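The authors aligned adapter-trimmed sRNA reads to TAIR10 and the spike-in sequences with Bowtie, allowing no mismatch and at most 100 alignments for a read, and deposited RPM per transposon for the siR_21 and siR_24 classes. A transposon absent from a file was set to 0. Values were whole multiples of 1 read for at least 99.97% (tolerance 0.01 read), not divided among matches, so reads were recovered for edgeR and DESeq2,. For mRNA, the authors aligned with RSEM and deposited TPM per gene. The depth behind TPM is unknown.

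Transposons with a mean of at least 1 RPM (genes: 1 TPM) over the 6 libraries were tested with limma (trend, 1 spread for 3 groups) on log2(value + 1), with Benjamini-Hochberg adjustment over all tested and calls at an adjusted p under 0.05. Differences on this scale understate changes of low values. Spike-in scaling multiplied RPM by the inverse of the spike-in share of each library. The fits were tested on simulated data. TAIR10 and TAIR10.1 share nuclear chromosome sequences, and coordinates are of TAIR10.1.

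The members, the lists of genes and the tests were chosen with earlier results of these data known. Named members are the 5 highest and the 5 with the largest log2(RPM + 1) difference in the siR_21 table, up to 3 of each of the 3 longest runs, the 3 highest in the siR_24 table, the 2 largest called falls and rises in dcl234 flowers per table, and 2 on either side of the threshold. Others were chosen after their values were seen. Pathway genes are named where called with a difference of at least 1. Alternatives were the pseudocount (0.1), filters, the 4 flower libraries alone, a replicate block, spike-in, table-sum and quantile scaling, edgeR, DESeq2, other thresholds and gaps, and leaving out each replicate. Python 3.11.15, NumPy 2.4.6, pandas 2.3.3, matplotlib 3.10.9, R 4.3.3, limma 3.58.1, edgeR 4.0.16 and DESeq2 1.42.0 were used.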

Additional observations from a re-analysis of the deposited data

How the results depend on the processing

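The number of members was 276 with a minimum of 10 RPM, 3 with sRNA spike-in scaling and 5770 when each library was scaled to its siR_21 table sum. It ran from 696 to 1128 with 1 replicate of leaves or Col-0 flowers left out, which drops some of the comparisons that the rule requires. The 696 and 930 found without replicate 1 or 2 of Col-0 flowers had to hold all 540 members, since this only relaxes the rule. Without replicate 1 or 2 of the leaves, 529 and 521 of the 540 members were kept. In the siR_21 table, 139 members were called lower in dcl234 flowers with at least 1 RPM required in each library (142 tested), 75 with edgeR (TMM) and 67 with DESeq2. Those called higher were 67 and 57 with the same tools. With edgeR on the genome-matching totals, chosen after seeing the data, 533 were lower and 2 higher. In the siR_24 table the 166 called lower became 73 with 1 RPM in each library (184 tested) and 84 with DESeq2. The 9 called higher became 2 with a pseudocount of 0.1, 2 without a filter, 14 with spike-in scaling, 23 with edgeR (TMM) and 20 with DESeq2. With a replicate left out, 517 to 533 were lower in the siR_21 table, and 84 to 200 lower and 2 to 13 higher in the siR_24 table. The members with leaves above flowers in the siR_24 table were 6 with spike-in scaling and 240 to 315 with a replicate left out. Pathway genes lower in leaves were 7 to 19 with a replicate left out. Members in runs were 51 with no gap and 151 with a gap of 5. Beyond changed library scales, comparisons dropped from the rule and fewer members tested, the cause of these changes was not tested. For edgeR and DESeq2, the median of all transposons was near 0.

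Leaves and Col-0 buds came from the same plants, but whether equal replicate numbers mark the same pool was not stated. The correlation of the replicate differences of any 2 groups was between -0.08 and 0.08 over both tables. With a replicate block, 532 members were lower and 2 higher in the siR_21 table, 176 lower and 11 higher in the siR_24 table. In the siR_21 table, the dcl234 differences of AT3TE24550, AT5TE54595, AT5TE11315 and AT1TE93285 kept direction and call under every alternative run for them, as did those of AT1TE72020, AT1TE71915, AT5TE11315 and AT5TE41000 in the siR_24 table. Those of AT3G43828, AT5TE40480, AT4TE14145 and AT4G06477 in the siR_21 table turned to 0.91, 0.95, 1.20 and 0.93 with edgeR (TMM) and 0.84, 0.87, 1.12 and 0.85 with DESeq2. In the siR_24 table AT3G43828 and AT1TE93285 each lost the call in 5 alternatives. Of the named pathway genes, NRPD2, HEN1, CMT3 and DDM1 lost the call in 12 of their alternatives. Members with few reads limit the rule, since 129 rested on fewer than 20 reads in leaf replicate 2.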
